A study of Drosophila melanogaster with 5 samples.

Results

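RhoGAP genes encode GTPase-activating proteins (GAPs) of small GTPases that control the actin cytoskeleton, and they were followed here through 18 probe sets of 13 genes, among 11982 genes with a probe set of their own and 18769 non-control probe sets in all, in Drosophila melanogaster. Members were chosen by name: a probe set belonged to the group when its only annotated gene symbol starts with RhoGAP or RhoGEF. No probe set in the annotation used here carried a single symbol starting with RhoGEF (0 probe sets), so the RhoGEF-named genes were not analysed here and all members are RhoGAPs. The family was itself picked out for description with the differences between these same arrays known. The differences and the calls below therefore describe these arrays and are not independent evidence about the family.

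These small GTPases are molecular switches that cycle between a GTP-bound active and a GDP-bound inactive form. Guanine nucleotide exchange factors (GEFs) load GTP and switch them on, GAPs speed up GTP hydrolysis and switch them off, and the dissociation inhibitor RhoGDI keeps the inactive form in the cytoplasm. Their active forms drive formin-dependent actin assembly, myosin contraction, branched actin and the Pak kinases. In the larval salivary gland, actin and myosin coat and squeeze the large glue granules after they fuse with the apical membrane, and RhoGAP71E takes part in that cycle on the granules.

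Total RNA of prepupal salivary glands was hybridised to 5 arrays. For 3 of them the glands came from P{hs-Fkh111} animals, which carry a heat-inducible transgene of the forkhead transcription factor gene fkh, active in every tissue that responds to heat shock. For the other 2 the glands came from w1118 animals, a white-eyed control strain without that transgene. Animals of both groups were kept at 25 °C, were heat shocked for 30 min at 37 °C when 9.5 h had passed since puparium formation, and were dissected at 14 h. The submitters name the arrays of each group biological replicates. The labels state neither the number of animals per array nor their sex.

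The fkh probe set went against the label: its intensity was 41.5, 47.0 and 58.3 in the arrays labelled Fkh and 130 and 120 in the w1118 arrays, a log2 difference of -1.13 ± 0.17 (SE, limma adjusted p = 0.0026). Which stretch of fkh the transgene carries is not stated in the labels, and a probe set that reads another stretch would check nothing. Why the fkh probe set was lower in the arrays labelled Fkh was not tested. All directions given here are those of the labels. The tissue label was checked with gland markers: Eig71Ea, a gene for a secreted protein of the late gland, lay between 12200 and 12970 on every array. The summed intensity of the 13 gland markers measured was 59410 to 60870 in the arrays labelled Fkh and 24360 to 27440 in w1118. Of these 13 markers 8 rose, 3 were not called and 2 fell, the last being fkh itself and the glue gene Sgs7 (-0.58, limma adjusted p = 0.042), while the glue gene Sgs8 had -0.64 (limma adjusted p = 0.104). Markers of other tissues moved between the same groups. The summed intensity of 6 fat body markers was 10360 to 11040 against 14770 to 16960, that of 8 haemocyte markers 1515 to 2087 against 3612 to 3677, that of 3 tracheal markers 956 to 1123 against 1877 to 2455, and that of 4 neuronal markers 204 to 260 against 429 to 473. The 5 muscle markers summed to 192 to 221 against 177 to 223. None of these markers was listed at 0 in all arrays. Numbers called lower were 3 of 6 fat body, 4 of 6 tested haemocyte, 2 of 3 tracheal and 2 of 4 neuronal markers, with none called higher. The tracheal marker btl went the other way (0.57, limma adjusted p = 0.0915), with all arrays labelled Fkh above both w1118 arrays. Of the haemocyte markers not called, He had 0.14 and Pxn -0.15. Those too dim to be tested, Hml and eater, had 0.09 and -0.32. The actin control probe sets at the 3' and the 5' end of the transcript, whose quotient grows as RNA or labelling degrades, gave quotients of 4.94, 4.30 and 3.37 (arrays labelled Fkh) and 2.47 and 2.54 (w1118). The part of other tissues and of RNA quality in the RhoGAP differences was not tested. In bulk RNA, fewer cells of a type and less RNA per cell cannot be told apart.

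Most RhoGAP signals that differed were lower in the arrays labelled Fkh. Of the 18 member probe sets, 14 passed the filter on dim probe sets, and 9 of these fell, 1 rose and 4 were not called. Here and below, fell and rose mean lower and higher in the arrays labelled Fkh with a limma adjusted p under 0.05, fitted and adjusted over all 11261 probe sets tested. Over all of these, 18.7% fell and 20.7% rose. Of the member probe sets, 7 fell at least 2-fold, beside 9.56% of all tested. These include 3 probe sets of RhoGAP71E and both of RhoGAP1A, so they are not 7 separate genes. With each gene counted once through its probe set of highest mean, 5 of 10 tested genes fell (RhoGAP71E, RhoGAP18B, RhoGAP1A, RhoGAP92B and RhoGAP5A) and 1 rose (RhoGAP93B), beside 19.3% and 21.5% of the 8298 genes tested. Since the contrast was known when the family was picked, nothing is read from these shares.

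The median log2 difference over all 18 member probe sets, filtered or not, was -0.56, beside -0.03 over all 18769. Genes with several probe sets count more than once in it. With each of the 13 genes counted once through its probe set of highest mean, the median was -0.33, beside -0.03 over all genes. With 64 in place of 16 added to each intensity, the median over the 18 probe sets was -0.31. Taken against the w1118 mean, the median over the members was -0.76, -0.65 and -0.56 in the 3 arrays labelled Fkh. The difference was negative for 15 member probe sets, some of them of the same gene, and positive for 3. The share of negative differences was not counted over all probe sets, whose median was -0.03. All 3 arrays labelled Fkh lay below both w1118 arrays for 11 member probe sets and above both for 1, beside 27.6% and 24.6% of all probe sets. For the other 6 members the groups overlapped. The plot of intensities by array shows this order, from the RhoGAP71E probe sets with groups far apart to the dim RhoGAP102A and RhoGAP100F probe sets whose groups intermingle.

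**Figure D1:**
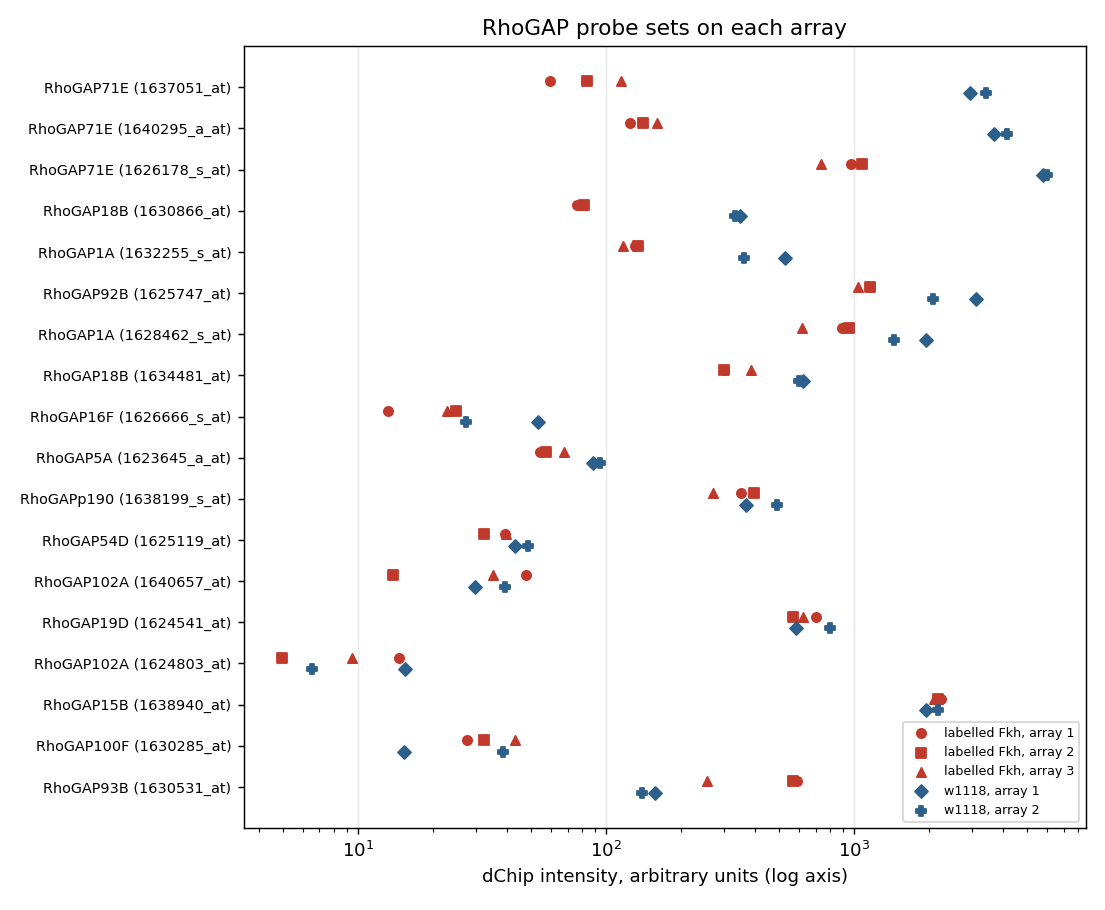
Intensity of the 18 RhoGAP probe sets on each of the 5 arrays (log axis, arbitrary units), 3 arrays labelled Fkh in red and 2 w1118 arrays in blue, each point 1 array. The probe sets are ordered by their difference. The groups are farthest apart for RhoGAP71E, whose probe set 1637051_at lies between 59.5 and 115 in the red arrays and at 2930 and 3406 in the blue ones, and RhoGAP93B at the bottom is the member with all red arrays above both blue ones.

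RhoGAP71E, also called C-GAP and known for its part in mesoderm invagination in the embryo, had the widest gap of any member. Its probe set 1637051_at gave 59.5, 83.5 and 115 in the arrays labelled Fkh and 2930 and 3406 in the w1118 arrays. The control mean was 36.8 times the other, and the log2 difference was -4.99 ± 0.25 (SE, limma adjusted p = 2.56e-05). Ordered from the most negative difference upward, it stood at place 13 among all 18769 probe sets. The groups did not overlap, and the smallest of the 6 array-by-array gaps was -4.49 on the log2 scale.

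The other probe sets of RhoGAP71E went the same way by different amounts. The probe set 1640295_a_at read 126, 141 and 160 against 3660 and 4143, a log2 difference of -4.63 ± 0.17 (SE, limma adjusted p = 9.84e-06) and place 18 of all. The probe set 1626178_s_at read 977, 1080 and 733 against 5776 and 6017, a difference of -2.66 ± 0.20 (SE, limma adjusted p = 0.000129). A ratio of means of 6.34 at this probe set stood beside 36.8 and 27.4 at the others. All 3 arrays labelled Fkh were below both controls at each of them. The array-by-array gaps of 1626178_s_at ran from -3.01 to -2.40, and those of the other probe sets from -5.50 to -4.38, so the sizes did not overlap. Array 3 labelled Fkh was the highest at the probe sets 1637051_at and 1640295_a_at and the lowest at 1626178_s_at. Which transcripts of RhoGAP71E each probe set reads is not stated in the labels or the annotation, and the difference in size between them was not tested.

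RhoGAP18B, a gene known for its part in actin-dependent behavioural responses to ethanol in the fly, fell at both of its probe sets. At 1630866_at the intensities were 76.2, 81.3 and 81.0 in the arrays labelled Fkh and 347 and 333 in w1118. These replicates were tight, and the log2 difference was -1.90 ± 0.14 (SE, limma adjusted p = 0.000124), a ratio of means of 4.27. At 1634481_at they were 299, 300.2 and 384 against 624 and 602, a difference of -0.88 ± 0.17 (SE, limma adjusted p = 0.00741). The groups did not overlap at either probe set. The array-by-array gaps ran from -1.98 to -1.84 at the first and from -1.02 to -0.63 at the second. The call of 1634481_at was lost without w1118 array 1 (adjusted p = 0.0504) and with array 3 alone in the group labelled Fkh (0.0852).

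RhoGAP1A also fell at both of its probe sets. The probe set 1632255_s_at read 131, 135 and 117 in the arrays labelled Fkh and 526 and 360 in w1118, a log2 difference of -1.65 ± 0.20 (SE, limma adjusted p = 0.000969). The probe set 1628462_s_at read 892, 960 and 620 against 1954 and 1454, a difference of -1.04 ± 0.24 (SE, limma adjusted p = 0.0146). The w1118 arrays differed from each other more than for the previous gene, array 1 being the higher at both probe sets, yet all 3 arrays labelled Fkh stayed below them. Without w1118 array 1 the difference at 1628462_s_at was -0.83 and no longer called (adjusted p = 0.10). The gaps at the 2 probe sets, from -2.03 to -1.31 and from -1.63 to -0.59, overlapped.

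**Figure D2:**
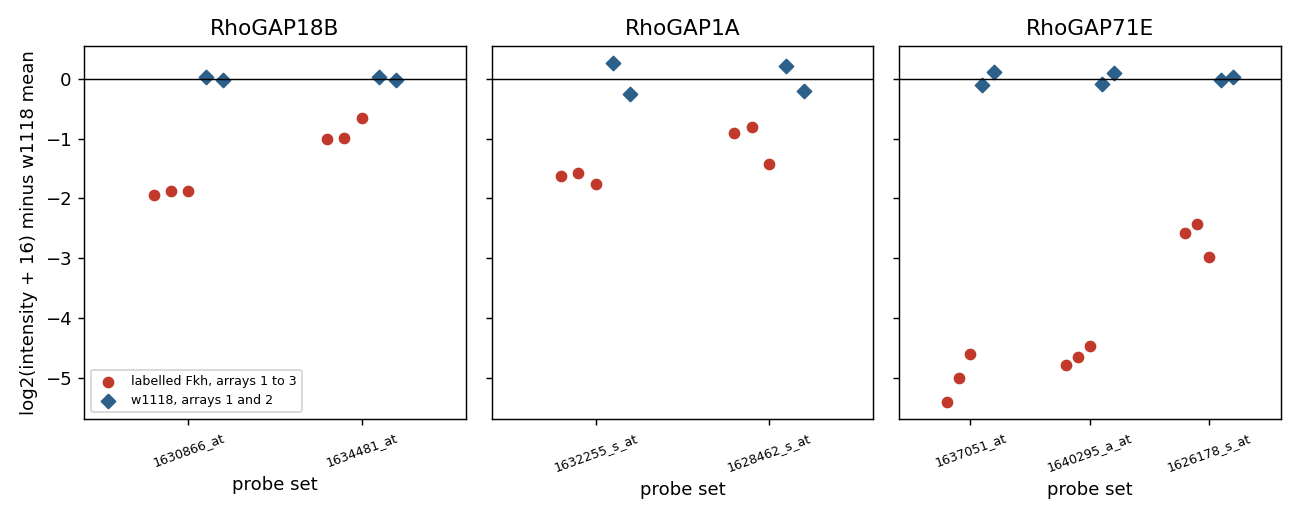
Each probe set of RhoGAP18B, RhoGAP1A and RhoGAP71E, as log2(intensity + 16) minus the mean of the w1118 arrays, with the 3 arrays labelled Fkh as red circles and the 2 w1118 arrays as blue diamonds. Every red point lies below every blue point. For RhoGAP71E the probe sets 1637051_at and 1640295_a_at differ from single control arrays by -5.50 to -4.38, and 1626178_s_at by -3.01 to -2.40.

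RhoGAP92B, the fly member of the Rich1 and nadrin group of BAR-domain GAPs that acts at the neuromuscular synapse, fell about as far as the second RhoGAP1A probe set. Its intensities were 1165, 1164 and 1034 in the arrays labelled Fkh and 3097 and 2079 in w1118. The log2 difference was -1.17 ± 0.21 (SE, limma adjusted p = 0.00489), and the groups did not overlap. Most of the spread lay between the controls, and without w1118 array 1 the difference was -0.88 (adjusted p = 0.0301). With array 3 alone in the group labelled Fkh it was -1.28 (adjusted p = 0.0495).

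RhoGAP5A, a chimaerin-type Rac GAP described in the developing fly eye, had the smallest fall that was called. It read 54.4, 57.1 and 67.5 in the arrays labelled Fkh and 88.4 and 94.8 in w1118, a log2 difference of -0.51 ± 0.15 (SE, limma adjusted p = 0.0391). The groups did not overlap, but the call was lost with any of 4 arrays left out: without array 1 or 2 of those labelled Fkh the adjusted p was 0.12 and 0.11, and without w1118 array 1 or 2 it was 0.12 and 0.16.

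RhoGAP93B, also named vilse or CrGAP, a GAP that acts below the Slit receptor Robo in axon and tracheal guidance, was the member that rose. Its intensities were 587, 566 and 255 in the arrays labelled Fkh and 158 and 140 in w1118. Every array labelled Fkh was above both controls, but array 3 was well below the others of its group. The log2 difference was 1.47 ± 0.36 (SE, limma adjusted p = 0.0178), a ratio of means of 3.16. The call was lost without w1118 array 1 (adjusted p = 0.0746), without w1118 array 2 (0.0922) and with array 3 alone in the group labelled Fkh, where the difference was 0.72 (adjusted p = 0.075).

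**Figure D3:**
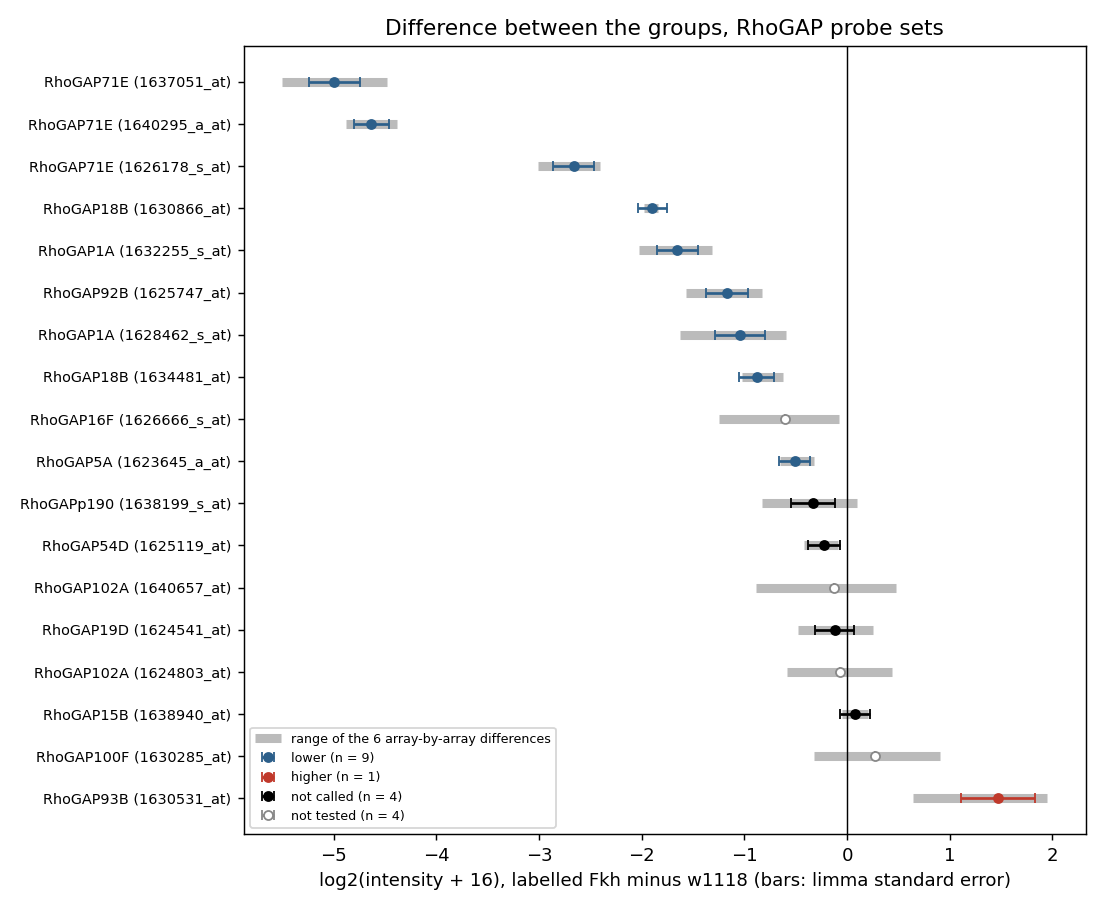
Log2(intensity + 16) in the arrays labelled Fkh minus w1118 for the 18 RhoGAP probe sets: points are the limma estimates with their standard errors, grey bands the range over the 6 pairs of arrays, and colours the calls (9 lower, 1 higher, 4 not called, 4 not tested, drawn open and without error bars). The estimates run from -4.99 for RhoGAP71E to 1.47 for RhoGAP93B, and the bands of 6 probe sets cross 0.

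The remaining tested members were not called. RhoGAP15B was bright and read 2241, 2181 and 2105 in the arrays labelled Fkh and 1949 and 2174 in w1118, a log2 difference of 0.08 ± 0.15 (SE). RhoGAP19D, which holds Cdc42 activity away from the lateral membrane in follicle epithelium, read 701, 570 and 622 against 585 and 802, a difference of -0.12 ± 0.19 (SE). RhoGAPp190, the fly p190RhoGAP, which stabilises axon branches, read 349, 394 and 271 against 367 and 492, a difference of -0.33 ± 0.22 (SE, limma adjusted p = 0.267). In all 3 of these genes the groups overlapped, so a difference larger than the spread between arrays was not seen. RhoGAP54D read 39.0, 32.1 and 39.7 against 43.2 and 48.4, and its difference of -0.22 ± 0.15 (SE, limma adjusted p = 0.289) was not called although the groups did not overlap.

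The 4 probe sets under the filter were those of RhoGAP16F, RhoGAP100F and RhoGAP102A, which had intensities between 4.96 and 53.4 on all arrays and were not tested. RhoGAP16F read 13.2, 25.0 and 22.9 in the arrays labelled Fkh and 53.4 and 27.2 in w1118, without overlap. RhoGAP100F, the fly Syd-1 of presynaptic assembly, read 27.6, 32.2 and 42.8 against 15.4 and 38.4. At the RhoGAP102A probe sets the values were 47.8, 13.9 and 35.0 against 29.8 and 39.2, and 14.6, 4.96 and 9.44 against 15.4 and 6.51. The groups overlapped for RhoGAP100F and at both RhoGAP102A probe sets.

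Other genes of this GTPase cycle were counted from lists of pathway members, each gene through its probe set of highest mean. These counts stand beside the 19.3% that fell, the 21.5% that rose and the 59.2% that were not called among all 8298 genes tested this way, and with so few genes per list nothing is read from them. Of 5 RhoGAP-domain genes with other names, 1 fell, 1 rose and 3 were not called. The gene cv-c (crossveinless c), whose GAP acts in epithelial morphogenesis, read 289, 229 and 233 in the arrays labelled Fkh and 671 and 787 in w1118, a log2 difference of -1.49 ± 0.17 (SE, limma adjusted p = 0.000882). Its other probe sets had differences of -0.78, -0.07 and -0.04, of which the first was called. The gene conu (conundrum), a GAP that binds moesin, rose by 0.52 (limma adjusted p = 0.0291), a call that was lost without array 1 or 2 labelled Fkh or without w1118 array 1 or 2 (adjusted p = 0.0776, 0.0971, 0.0912 and 0.137).

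The exchange factors, the counterparts of the GAPs, were represented by 8 RhoGEF-domain genes with other names, and of these 3 fell, 1 rose and 4 were not called. The gene pbl (pebble), the GEF of cytokinesis, read 3157, 3265 and 3345 in the arrays labelled Fkh and 407 and 332 in w1118. The groups were far apart, with a ratio of means of 8.82 and a log2 difference of 3.09 ± 0.16 (SE, limma adjusted p = 2.63e-05). The gene tum, the RhoGAP subunit that partners pbl at the cleavage furrow, read 69.3, 50.4 and 67.2 against 83.1 and 84.6 and was not called (-0.36 ± 0.17, SE, limma adjusted p = 0.142). GEFmeso, an exchange factor that binds the GTPase Ral, read 138, 121 and 186 against 539 and 1228, a difference of -2.36 ± 0.35 (SE, limma adjusted p = 0.00258), and its other probe set had -2.65. With array 3 alone in the group labelled Fkh the first difference was -2.04 and not called (adjusted p = 0.0564). Exn, the fly ephexin of synaptic homeostasis, read 3665, 3626 and 2628 against 8380 and 9385, a difference of -1.44 ± 0.20 (SE, limma adjusted p = 0.00181). The third fall was that of trio, a Rac GEF of axon guidance, at -1.03, and its call was lost without array 2 or 3 labelled Fkh or without w1118 array 2 (adjusted p = 0.0694, 0.0554 and 0.171). Cdep was not called at its brightest probe set (-0.49, limma adjusted p = 0.0691) but fell at the other (-1.14, limma adjusted p = 0.0347). The median log2 difference of the 8 genes was -0.22, beside -0.03 over all genes.

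Among the GTPases and their inhibitor, 4 genes were measured. RhoGDI read 1027, 1041 and 684 in the arrays labelled Fkh and 3237 and 2822 in w1118, a log2 difference of -1.73 ± 0.22 (SE, limma adjusted p = 0.00139). RhoL, a small GTPase of migrating haemocytes, read 5719, 6310 and 6572 against 3231 and 3080, a difference of 0.97 ± 0.15 (SE, limma adjusted p = 0.00285). The groups of each were apart, in opposite directions. RhoU and RhoBTB were not called at their brightest probe sets (0.44 and -0.54, limma adjusted p = 0.172 and 0.292). A dimmer RhoU probe set, opposite in sign, fell: it read 48.6, 29.6 and 23.6 against 70.9 and 66.8, a difference of -0.79 ± 0.23 (SE, limma adjusted p = 0.0333), and the remaining one, under the filter, had -0.40. The genes Rac1, Rac2, Cdc42 and Mtl were not analysed here.

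Upstream of the cycle, the secreted ligand fog and the G-alpha subunit cta act in one pathway in the gastrulating embryo, where they recruit the exchange factor RhoGEF2. Of 5 tested genes of this group, 1 fell, 1 rose and 3 were not called, and smog, a receptor of fog, was under the filter. The intensity of fog was 1044, 896 and 644 in the arrays labelled Fkh and 5284 and 4575 in w1118, a log2 difference of -2.52 ± 0.23 (SE, limma adjusted p = 0.000301). That of cta was 815, 843 and 838 against 372 and 394, a difference of 1.09 ± 0.14 (SE, limma adjusted p = 0.00138). The ligand and the G protein thus differed in opposite directions, each without overlap between the groups.

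Downstream of the GTPases, 8 genes that comprise myosin regulators, the myosin light chain gene Mlc-c, dia and Pkn were tested. Of these 1 rose, 1 fell and 6 were not called. The listed genes zip, sqh and sti were not analysed here. The rise was that of flw, the catalytic subunit of the phosphatase that acts on myosin, with 4460, 4288 and 3410 in the arrays labelled Fkh and 2167 and 1903 in w1118 (log2 difference 0.98 ± 0.18, SE, limma adjusted p = 0.00582). With array 3 alone in the group labelled Fkh the difference of flw was 0.74 and not called (adjusted p = 0.0735). Drak, a kinase of the myosin light chain, had -1.06 ± 0.27 (SE, limma adjusted p = 0.0217), a call lost without array 2 labelled Fkh or without w1118 array 1 or 2 (adjusted p = 0.0628, 0.0519 and 0.129). Rok, a kinase that activates myosin, had a difference of 0.46 ± 0.17 (SE, limma adjusted p = 0.0761) and the formin dia -0.18 ± 0.16 (SE, limma adjusted p = 0.391). Strn-Mlck was not called at its brightest probe set, which averaged 10480 in the arrays labelled Fkh and 12040 in w1118 (-0.20, limma adjusted p = 0.293). It rose at a far dimmer one, which read 58.8, 51.6 and 53.8 against 14.6 and 16.7 (1.16, limma adjusted p = 0.00122). Its remaining probe set was under the filter. Of 11 Rac and Cdc42 effector and actin genes, 1 fell, 1 rose and 9 were not called. The fall was that of the formin DAAM, at 42.0, 40.3 and 48.2 against 113 and 136 (-1.24 ± 0.16, SE, limma adjusted p = 0.00133). The actin-severing cofilin tsr rose by 0.46 (limma adjusted p = 0.0406), a call lost without array 1 or 2 labelled Fkh or without w1118 array 1 or 2 (adjusted p = 0.114, 0.115, 0.164 and 0.122). Median log2 differences of these lists were -0.07 for myosin regulators, Mlc-c, dia and Pkn and -0.04 for Rac and Cdc42 effectors and actin.

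**Figure D4:**
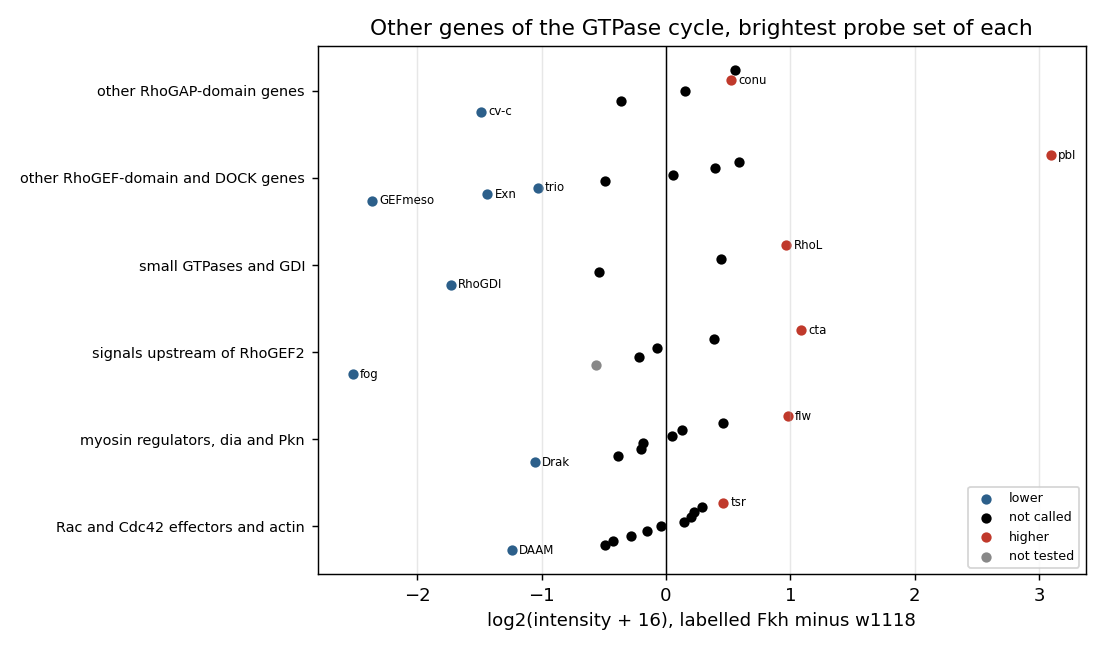
Log2(intensity + 16) in the arrays labelled Fkh minus w1118 for the other genes of the GTPase cycle, 1 point for the probe set of highest mean of each gene, by role, coloured by call with called genes named. Most points lie near 0, pbl stands apart on the right at 3.09, and fog at -2.52 and GEFmeso at -2.36 on the left.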

How the data were processed

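Per the labels' protocols, salivary gland RNA was labelled as biotin cRNA in one cycle and hybridised to 5 Affymetrix 1-colour arrays. The authors deposited 1 linear intensity per probe set, scaled in dChip to a common baseline array with a median of 134, per the series' design text. The version of dChip, its model and how it treated background are not stated there. The deposited values had lower medians over the non-control probe sets: 48.7, 44.6 and 49.0 in the arrays labelled Fkh and 49.1 and 49.5 in w1118. Depth does not apply, and the number of arrays limits the precision. The smallest p that a two-sided exact rank-sum test can give for 3 against 2 arrays is 0.2.

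Of 18952 probe sets, 183 controls were left out. The platform annotation names 1 gene for 13647 of the rest, several for 402 and none for 4720. The gene identifiers and symbols of all 18 members matched the RefSeq gene table of Release 6 plus ISO1 MT. No coordinates are given, because the annotation names no genome build.

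Values were taken as log2(intensity + 16), which understates differences of dim probe sets. Probe sets with a mean above the 40th percentile (5.62 on this scale) were tested in a two-sided limma 3.58.1 fit in R 4.3.3 (lmFit and eBayes; degrees of freedom 3 residual, 3.63 prior). P-values were adjusted after Benjamini and Hochberg over all 11261, and the threshold was 0.05. Figures used matplotlib 3.10.9 in Python 3.11.15.

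The members and the pathway and marker lists were chosen with earlier results of these data known. Every member is named. From each pathway list, the called genes of lowest p, 3 at most, are named with values, and trio, Cdep, tum, Rok, dia, Strn-Mlck, smog, RhoU and RhoBTB were named after their values were seen. RhoGEF2 and RhoGEF64C, which the rule also takes, were not analysed here. Other constants, filters, scalings, variance models, a replicate block and fits without single arrays were tried, as was array 3 alone in the group labelled Fkh. Over the tested probe sets, the SD of the log2 difference between arrays 1 and 2 labelled Fkh was 0.28. Between array 3 and each of these it was 0.45, and between the w1118 arrays 0.39.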

Additional observations from a re-analysis of the deposited data

How the results depend on the processing

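Over 13 alternative settings (other constants, filters, scaling, variance model, a replicate block, each array left out, and array 3 alone in the group labelled Fkh), 164 of 180 member differences kept direction and side of the threshold and 14 lost their call without a change of direction. The other 2, never called, changed sign: RhoGAP15B was -0.05 with quantile normalization and RhoGAP19D 0.10 without w1118 array 2. The 6 probe sets called under every setting were the 3 of RhoGAP71E, RhoGAP18B 1630866_at, RhoGAP1A 1632255_s_at and RhoGAP92B. RhoGAP5A lost its call also with constant 64 (adjusted p = 0.0533), with no filter (0.0828), with an intensity trend and robust prior (0.0505) and with array 3 alone in the group labelled Fkh (0.257). The number of members that rose was 0 to 1 with an array left out, and 0 with array 3 alone in the group labelled Fkh, where 7 fell beside 12.4% of all probe sets tested. The number that fell was 6 without w1118 array 1, beside 10.9% of all in that setting and 18.7% with every array, and 5 with 1 probe set per gene, an alternative chosen after seeing the data, which counts fewer probe sets. The median log2 difference of the members was -0.71 with constant 4 and -0.31 with constant 64, since a larger constant shrinks differences of dim probe sets, and -0.69 to -0.46 with an array left out. With the replicate number as a block (replicate block), 9 fell and 1 rose with a median of -0.62. The labels give no link between same-numbered arrays beyond the number. The deviations of array 1 of each group correlated at 0.08 and those of array 2 at -0.11. With 2 w1118 arrays the deviations of one mirror those of the other, so these values cannot decide whether arrays were paired. Of the 14 called genes of the pathway lists, conu, Drak, trio and tsr also lost their calls with the block (limma adjusted p = 0.0566, 0.0718, 0.0895 and 0.0677). The call of conu was lost as well with no filter (limma adjusted p = 0.0691) and with quantile normalization (0.0753). That of tsr was lost with no filter (0.0955), with quantile normalization (0.0632) and with constant 4 (0.0537). With array 3 alone in the group labelled Fkh, conu, trio and tsr had differences of 0.48, -0.98 and 0.42 and were not called. RhoGEF counts and medians had no members to compute. Detection calls were not used here, so the limit set by signal over background for dim members is not given.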

Other observations

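Genes that lie beside or overlap the 6 called RhoGAP genes in RefSeq gene order were looked up after the values of the members were seen. Of 14 such neighbours 13 had a probe set, 11 were tested, 3 fell and 2 rose, beside 19.3% and 21.5% of all genes tested. Around RhoGAP71E, CG13449 on the one side averaged 89.0 in the arrays labelled Fkh and 408 in w1118 (log2 difference -2.01 ± 0.15, SE, limma adjusted p = 0.000108), and CG7656 on the other 1683 and 3323 (-0.98 ± 0.16, SE, limma adjusted p = 0.0035). CG7650, which overlaps RhoGAP71E, averaged 63.1 and 36.1 and was not called. Beside RhoGAP92B, Surf6, a ribosome biogenesis gene, averaged 28.3 and 246, a difference of -2.61 ± 0.27 (SE, limma adjusted p = 0.000522). Beside RhoGAP93B, HHEX averaged 98.8 and 57.6 (0.64 ± 0.18, SE, limma adjusted p = 0.0291), and beside RhoGAP1A, CG17707 averaged 61.3 and 27.8 (0.83 ± 0.18, SE, limma adjusted p = 0.0113). Whether the differences of neighbours and members are related was not tested.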
